A study of Cervus nippon with 40 samples.

Results

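The miR-424, miR-503, miR-542 and miR-450 cluster was followed across 10 organs of the sika deer. Members were chosen by name: every listed name that carried bta-miR-424, bta-miR-503, bta-miR-542 or bta-miR-450 with any letter or arm suffix, and bta-miR-3601, whose reads equalled those of miR-542-5p in 40 of 40 libraries. The rule found 5 names, bta-miR-424-5p, bta-miR-450b, bta-miR-503-5p, bta-miR-542-5p and bta-miR-3601, which were counted as 4 miRNAs, among 336 known names and 499 names in all. The prefix bta marks cattle names, to which the deer reads had been matched, and is left out from here on.

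Small RNA was sequenced from testes, kidney, antler, adrenal, skeletal muscle, brain, spleen, liver, heart and lung. The deer were 1 year old at the juvenile stage, 3 in adolescence, 5 as adults and 10 when aged. RNA of 3 deer was pooled for each of the 40 libraries, so that an organ had 1 library per stage and the 12 deer of the study contributed to every organ. No deer received a treatment, and the 4 stages were the only repeats of an organ. P-values for organs therefore measure the spread over stages, and those for stages rest on 3 deer per stage that are shared by all organs.

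In mammals the genes of these miRNAs lie close together on the X chromosome and are largely transcribed as one unit. MiR-424-5p is the counterpart of rodent miR-322, shares its seed with the miR-15 and miR-16 family and is known for restraining cyclins and other genes of the cell cycle. MiR-503-5p has a closely related seed and is known as its partner in cell cycle exit and muscle differentiation, whereas miR-542-5p and miR-450b are less studied members of the same transcript. Mature sequences and genome positions of the deer miRNAs were not analysed here.

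Depth differed widely between libraries and was lowest in the 3 later testes libraries. The reads assigned to miRNAs ranged from 41866 (aged testes) to 7759033 (juvenile muscle), with a median of 744715. The juvenile testes library held 535668 reads, but the adolescence, adult and aged libraries held 67231, 97018 and 41866. A single read was thus worth 1.87 RPM (reads per 1000000 miRNA reads) in juvenile testes and 14.9, 10.3 and 23.9 RPM in the later testes libraries. In kidney it was worth 3.04, 2.72, 3.04 and 1.17 RPM from juvenile to aged.

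Marker miRNAs of testes were few in testes and were found in its first 2 stages only. Of 6 markers chosen for testes (miR-202, miR-34b, miR-34c and the 3 miR-449 forms) 3 were listed in any library, and their reads in testes summed to 7 in juvenile, 7 in adolescence, 0 in adult and 0 in aged. The most abundant was miR-202, known from gonads and adrenal, with 7 reads in juvenile and 1 in adolescence testes, while miR-449a, known from germ cells and ciliated cells, had 6 reads in adolescence testes. The markers summed to 13.1 and 104 RPM in juvenile and adolescence testes and to at most 1.54 RPM in any library of another organ. In adult and aged testes the limit of 3 reads was 30.9 and 71.7 RPM. Over 124 miRNAs the juvenile testes library was closest to juvenile adrenal (Pearson r = 0.921, against 0.916 with its nearest testes library, adolescence). Muscle miRNAs were also present, as miR-1 reached 3390, 48579, 8895 and 13997 RPM in the 4 testes libraries and miR-133a 80.3, 2677, 1969 and 7142 RPM. The heart markers miR-208a, miR-208b and miR-499 were at 0 reads in all 4, as was miR-206 of skeletal muscle. For kidney 5 of 5 markers were listed, led by miR-192 at 270874, 248624, 63924 and 67465 RPM, and limma placed miR-192 and miR-196a higher in kidney than in the mean of the other 9 organs. MiR-30a-5p did not pass there (log2 difference 2.21, limma adjusted p = 0.0149). MiR-194 and miR-204, with 6 reads and 1 read in all libraries, were too scarce to be tested with limma. The marker sum did not separate kidney from liver, since adult and aged liver held 164599 and 152070 RPM against 65420 and 68814 RPM in kidney.

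Reads of the cluster were dominated by one arm of one miRNA. The cluster held 3295 reads in the 40 libraries, of which miR-424-5p gave 3101 (94.1%), miR-450b 142 (4.31%), miR-542-5p 48 (1.46%) and miR-503-5p 4 (0.121%). MiR-424-5p had a read in 27 libraries and in 9 organs, miR-450b in 16 libraries and 6 organs, miR-542-5p in 15 libraries and 7 organs, and miR-503-5p in 3 libraries and 2 organs. Testes contributed 2500 reads of miR-424-5p (80.6%), 72 of miR-450b (50.7%) and 22 of miR-542-5p (45.8%). Most of the testes reads of miR-424-5p, 2331 of 2500, came from the juvenile library. No read of miR-503-5p was found in testes.

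MiR-424-5p, the cell cycle member, was highest in testes at every stage. Its level in testes was 4352 RPM in juvenile (2331 reads), 1993 in adolescence (134 reads), 278 in adult (27 reads) and 191 in aged (8 reads). In kidney it was 252 RPM (83 reads), 300 (110 reads), 18.2 (6 reads) and 46.7 (40 reads) at the same stages. The adrenal libraries held 215, 103, 3.34 and 27.8 RPM (135, 88, 2 and 26 reads). Juvenile and adolescence libraries were above adult and aged ones in each of these 3 organs, and the adult and aged testes libraries lay within the range of kidney. In pooled organ RNA a smaller share of cells that hold a miRNA and a lower level per cell cannot be told apart.

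Antler, the regenerating bone organ of the deer, had a narrower range of 55.9, 65.4, 34.1 and 19.4 RPM (12, 14, 23 and 14 reads). Brain held 10.3, 0, 1.25 and 4.34 RPM and spleen 0, 1.12, 2.21 and 16.8 RPM. Skeletal muscle, with the deepest libraries, held 2.06, 0.18, 0 and 0.17 RPM. In liver and heart a read was found in juvenile alone (4.57 and 0.39 RPM). In lung 0 reads were found at any stage, which allows up to 2.87, 4.61, 3.91 and 2.88 RPM by the limit of 3 reads. Counting intervals and limits cover counting error only, since reads were not tagged by molecule.

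**Figure D1:**
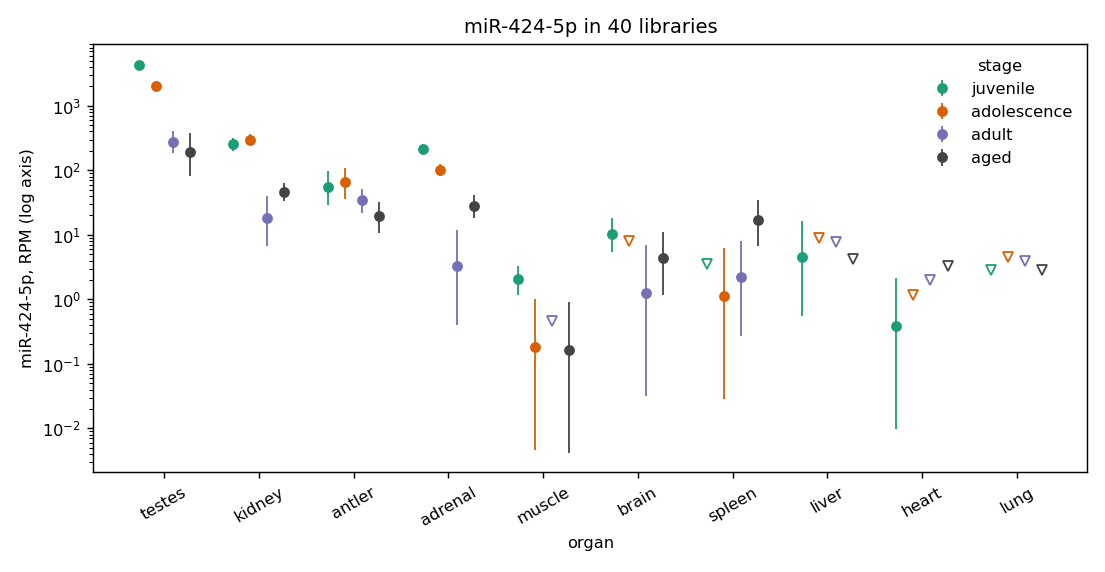
Level of miR-424-5p (RPM, log axis) in each of the 40 libraries, by organ and stage (colour), with 1 pooled library per point and bars for the exact 95% Clopper-Pearson counting interval. Open triangles mark the limit of 3 reads in libraries with 0 reads. The 4 testes libraries run from 191 to 4352 RPM and are the highest at each stage, and lung has triangles only.

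Within stages the testes library exceeded the next organ by 17.3-fold in juvenile (kidney), 6.65-fold in adolescence (kidney), 8.16-fold in adult (antler) and 4.09-fold in aged (kidney). Against kidney alone the ratio was 15.3-fold in adult. Against lung it was at least 1518-fold in juvenile. This and later bounds divide the measured level by the limit of 3 reads in the library at 0 and leave out the counting error of the measured level. By abundance among the known names with a read in the library, miR-424-5p ranked 19 of 183 in juvenile testes, 30 of 137 in adolescence, 45 of 120 in adult and 57 of 100 in aged. In kidney the ranks were 57 of 156, 55 of 169, 92 of 149 and 79 of 176.

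To compare testes with the mean of the other 9 organs, limma was fitted to TMM-scaled log2(RPM + 1) values with terms for organ and stage. The fit covered the 124 known miRNAs with 10 or more reads in 4 or more libraries, and a miRNA was called at an adjusted p below 0.01 and a log2 difference above 1. Of the 4 cluster miRNAs miR-424-5p and miR-450b passed the read minimum, and miR-450b did so with exactly 4 libraries, 1 of them from testes. Both were called higher in testes, where 6 of the 124 (4.84%) were called higher. The log2 difference was 5.82 ± 0.70 (SE) for miR-424-5p (limma adjusted p = 1.88e-08) and 2.50 ± 0.59 for miR-450b (limma adjusted p = 0.00153). The call of miR-450b was lost without the adolescence testes library (2.07, limma adjusted p = 0.0267), and without the juvenile one it fell below the read minimum. The difference of miR-424-5p was the largest of the 6, the next being 2.63 for miR-106a. The median difference of the 124 was -0.46, and miR-424-5p stood 6.29 above it.

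By the mean scaled log2 level kidney came next for miR-424-5p, although adult antler (34.1 RPM) was above adult kidney (18.2 RPM) and limma did not call the difference of kidney and antler (0.21 ± 0.94, adjusted p = 0.901). The kidney log2 difference of miR-424-5p from the other 9 organs was 2.75 ± 0.70 (SE, limma adjusted p = 0.00252), among 12 of 124 miRNAs (9.68%) called higher in kidney. In order of size it was the seventh of these 12, below miR-196b, miR-196a, miR-135a, miR-192, miR-135b and miR-215. This call was lost without the adolescence kidney library (2.22, limma adjusted p = 0.0503) and without the juvenile one (2.65, limma adjusted p = 0.0126). It was also lost with log2(RPM + 10) (1.32, limma adjusted p = 0.0210) and with no stage block (limma adjusted p = 0.0104). MiR-450b was not called in kidney (0.84 ± 0.59, limma adjusted p = 0.405).

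Antler differed from the other organs by 2.52 ± 0.70 for miR-424-5p (limma adjusted p = 0.00346) and by 2.16 ± 0.59 for miR-450b (limma adjusted p = 0.00327), with 15.3% of miRNAs called higher in antler. In adrenal the difference of miR-424-5p, 1.70 ± 0.70, did not pass (limma adjusted p = 0.0775), and 7.26% were called higher. Lower calls for miR-424-5p were made in heart (-3.04, 14.5% of miRNAs called lower), liver (-2.81, 11.3%) and lung (-3.29, 6.45%). These 3 values are no measure of size, since they depend on the 1 RPM added before the logarithm. Lung had 0 reads, and heart and liver had 1 and 2 reads, all in juvenile.

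**Figure D2:**
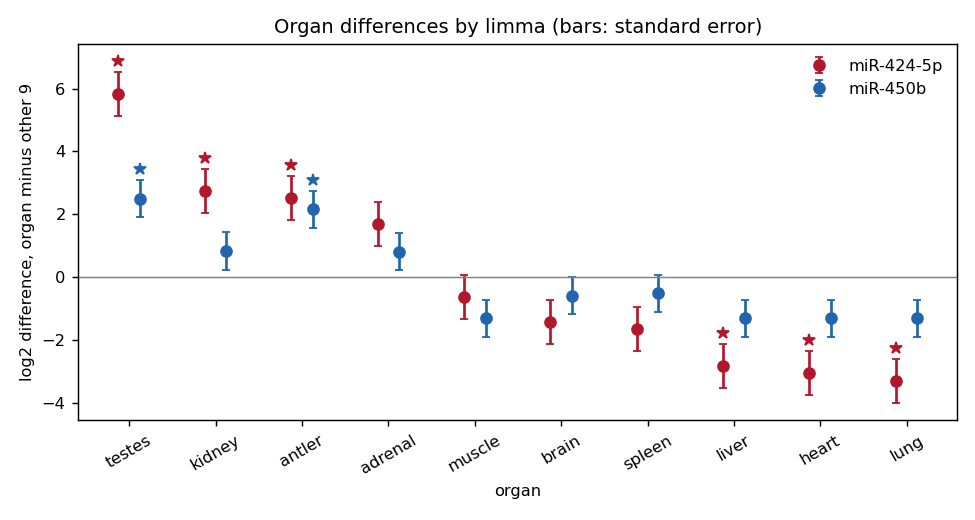
Log2 difference between each organ and the mean of the other 9 organs for miR-424-5p (red) and miR-450b (blue), from limma on 40 libraries. Bars are standard errors, and stars mark differences called at an adjusted p below 0.01 and above 1 in size. Testes and antler carry stars for both miRNAs, and kidney carries one for miR-424-5p at 2.75.

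By the mean scaled log2 level the order of organs for miR-424-5p was testes 8.21, kidney 5.44, antler 5.23, adrenal 4.50, muscle 2.41, brain 1.70, spleen 1.50, liver 0.44, heart 0.23 and lung 0. No organ differed from its neighbour in this order by the limits used. The difference between testes and kidney was 2.76 ± 0.94 (limma adjusted p = 0.0283). Testes was called above 7 of the other 9 organs, all but kidney and antler (2.97 ± 0.94, limma adjusted p = 0.0134). Both of these were called with total reads in place of TMM and with log2(RPM + 10), while the call over adrenal was lost with no stage block (limma adjusted p = 0.0101) and without the adult stage (limma adjusted p = 0.0715). Kidney was called above 5 of the other 8 (brain, spleen, liver, heart and lung), and 20 of all 45 pairs of organs were called. Over all 124 miRNAs 6.36% of the tests of testes against single organs were called higher, 10.6% of those of kidney, and 23.1% of the tests over all pairs in either direction. The place of muscle depends on the scaling, since its RPM values lay between 0 and 2.06.

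The members below the read minimum were tested with an exact permutation of libraries within stages over 305 names, two-sided, in which 0.0001 is the smallest p that can be given. Testes exceeded the other 9 organs by 7.25 on the log2(RPM + 1) scale for miR-424-5p (exact p = 0.0001, adjusted p = 0.00763) and by 3.97 for miR-542-5p (exact p = 0.0001, adjusted p = 0.00763). Of the 305 names 6 (1.97%) were called higher in testes at an adjusted p below 0.05. They include miR-3601, which has the same reads as miR-542-5p and entered this adjustment as a name of its own. The permutation was not run with second names counted once. MiR-450b differed by 3.58 and did not pass after adjustment (exact p = 0.0017, adjusted p = 0.0648). In kidney 3.61% of names were called higher, and none of the 4 cluster miRNAs was among them. The difference for miR-424-5p there was 3.72 (exact p = 0.0314, adjusted p = 0.282), and that for miR-503-5p 0.92 (exact p = 0.01, adjusted p = 0.138).

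The values behind miR-542-5p were few reads. Testes held 33.6 RPM in juvenile (18 reads), 14.9 in adolescence (1 read), 20.6 in adult (2 reads) and 23.9 in aged (1 read). In adrenal the levels were 3.19, 3.51, 3.34 and 6.41 RPM (2, 3, 2 and 6 reads), and in kidney 3.04, 0, 3.04 and 8.17 RPM (1, 0, 1 and 7 reads). The testes values did not overlap those of the other organs, but in the 3 later testes libraries a single read was worth more than the highest adrenal or kidney value. The juvenile library, with 18 reads, was at least 13.0-fold above brain and at least 28.9-fold above heart of the same stage, both at 0 reads. Its 95% interval was 19.9 to 53.1 RPM. The other juvenile organs at 0 reads gave bounds of at least 2.41-fold (antler), 4.91-fold (liver), 9.52-fold (spleen) and 86.9-fold (muscle).

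MiR-450b had its highest levels in the first 2 testes stages. Testes held 116 RPM in juvenile (62 reads), 134 in adolescence (9 reads), 0 in adult (which allows up to 30.9 RPM) and 23.9 in aged (1 read). Kidney held 9.11, 38.1, 0 and 2.34 RPM (3, 14, 0 and 2 reads), and adrenal 23.9, 17.5, 0 and 0 RPM (15, 15, 0 and 0 reads). Antler was the one organ with reads at all 4 stages, at 18.6, 4.67, 7.41 and 6.92 RPM (4, 1, 5 and 5 reads). In the adult stage testes, kidney and adrenal had 0 reads and antler 5. Heart, liver, lung and muscle had 0 reads of miR-450b in all 16 libraries.

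MiR-503-5p, the partner of miR-424-5p, had 2 reads in adolescence kidney (5.45 RPM), 1 in aged kidney (1.17 RPM) and 1 in aged lung (0.96 RPM). Its absence from testes allows up to 5.60 RPM in juvenile, where miR-424-5p stood at 4352 RPM. The limits were 44.6, 30.9 and 71.7 RPM in the 3 later testes libraries. At this depth a difference in miR-503-5p between testes and kidney was not detectable.

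The course over the 4 testes libraries was compared by pairs of libraries with the random sampling model of DEGseq, at a q below 0.01 and a log2 difference above 1. These tests compare 2 libraries and not 2 conditions. MiR-424-5p was lower by 2.18-fold in adolescence than in juvenile (30% of names called in this pair), by 15.6-fold in adult (30%) and by 22.8-fold in aged (31.7%). From adolescence it was lower by 7.16-fold in adult (25.2%) and by 10.4-fold in aged (21.8%). All 5 of these pairs were called, and the pair of adult and aged was not (1.46-fold, q = 0.594, 4.76% called). The intervals of the last 2 libraries, 183 to 405 RPM and 82.5 to 376 RPM, overlapped, whereas those of juvenile (4177 to 4531) and adolescence (1670 to 2360) did not. These folds are on RPM, and their sizes depend on the scaling. On the TMM-scaled log2 scale the levels were 10.92, 8.71, 7.22 and 5.98 from juvenile to aged. There the largest step lay between juvenile and adolescence, whereas on RPM it lay between adolescence and adult.

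MiR-450b was called lower in adult than in juvenile and than in adolescence testes, by at least 3.74-fold and at least 4.33-fold against the limit of 3 reads. It was also called lower in aged than in juvenile testes on 1 against 62 reads, a call that an exact binomial test of the same reads did not make (q = 0.224). The first 2 stages did not differ beyond counting error (q = 0.603). No pair of testes libraries was called for miR-542-5p, whose level ran between 14.9 and 33.6 RPM.

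**Figure D3:**
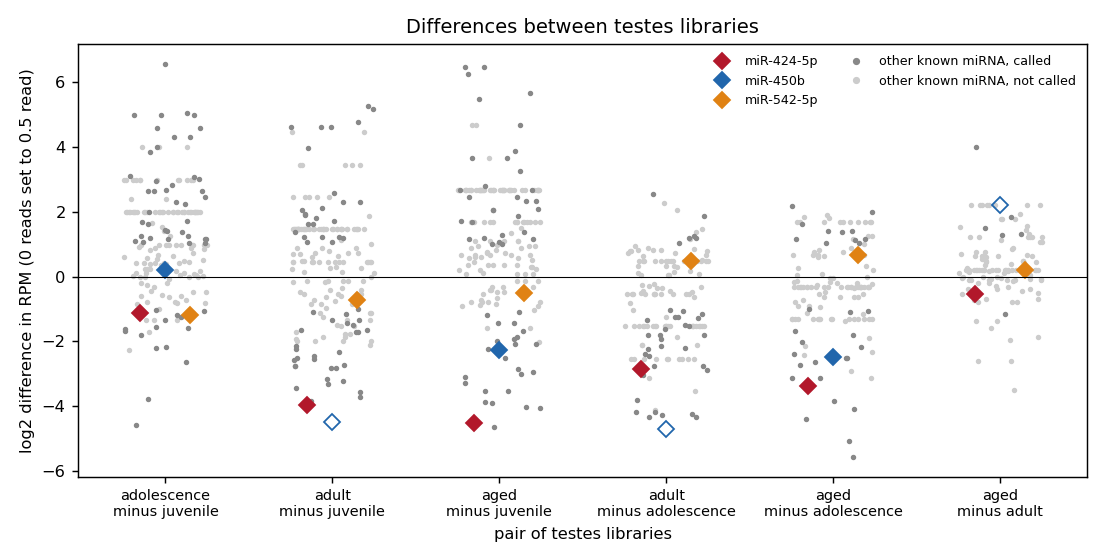
Log2 difference in RPM for every known miRNA in the 6 pairs of testes libraries, with 0 reads set to 0.5 read. Diamonds are miR-424-5p (red), miR-450b (blue, open where 1 library had 0 reads) and miR-542-5p (orange), dark dots other miRNAs called and light dots other miRNAs not called. MiR-424-5p lies below 0 in all 6 pairs, at -4.51 for aged minus juvenile and -0.54 for aged minus adult.

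When the spread was taken from the stages within all organs, in a fit without the stage block, the juvenile testes library did not pass the limits. It exceeded the 3 later testes libraries by 3.61 ± 1.70 (SE) on the log2 scale for miR-424-5p (limma adjusted p = 0.204) and by 3.05 ± 1.34 for miR-450b (limma adjusted p = 0.204). In this comparison 1 of the 124 miRNAs (0.806%) was called, miR-133a of muscle, which was lower in the juvenile library. With stage added as a block the difference of miR-424-5p was 2.17 ± 1.59 (limma adjusted p = 0.460) and 0 miRNAs were called.

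Muscle, adrenal, smooth muscle and red cell markers and the brain miRNA miR-124a were lowest in the library where miR-424-5p was highest. The muscle markers were listed 3 of 3. Their sum was 3470 RPM in juvenile, 51256 in adolescence, 10864 in adult and 21139 in aged, with miR-1 the most abundant and miR-206 at 0. The brain miRNA miR-124a held 37.3, 89.2, 155 and 358 RPM in the same libraries. The sum of the antler markers, like miR-424-5p, was highest in juvenile. These markers were listed 3 of 3, led by miR-199a-3p of connective tissue, and summed to 158524, 90896, 66709 and 63058 RPM. MiR-214 among them was instead highest in aged, at 3935, 2305, 5556 and 6043 RPM. Blood cell markers, 3 of 5 listed and led by miR-142-5p, were highest in adolescence and summed to 192, 654, 51.5 and 23.9 RPM. Kidney markers were higher in juvenile and adolescence than in adult and aged testes (6067, 12851, 3422 and 3153 RPM). Adrenal markers (10622, 85422, 11699 and 16242 RPM) were highest in adolescence, and smooth muscle markers (34146, 74118, 105877 and 66020 RPM) in adult. Red cell markers, led by miR-486, summed to 441, 982, 1031 and 788 RPM. The part of these markers in the course of miR-424-5p was not tested.

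In kidney miR-424-5p did not differ between juvenile and adolescence (1.19-fold, q = 0.446) and was lower in adult than in juvenile by 13.8-fold (29.1% of names called) and in aged by 5.39-fold (26.4%). Of the 6 kidney pairs 4 were called, and in the other 4 pairs 11.3%, 25.1%, 25.9% and 12.2% of names were called. The adult and aged libraries differed by 2.56-fold (q = 0.0176), which missed the limit, but with TMM-scaled library sizes this pair was called too (5 of 6). Kidney markers moved the same way, as their sum was 274031 and 251334 RPM in juvenile and adolescence against 65420 and 68814 RPM in adult and aged. The muscle markers of kidney were split, as miR-1 held 11626, 11221, 3157 and 1345 RPM and miR-133a 261, 804, 1123 and 939 RPM. The adrenal marker miR-7 was also lower in the later kidney libraries, at 9425, 3533, 1008 and 647 RPM. Blood cell markers in kidney were lowest in juvenile, at 97.1, 210, 131 and 145 RPM. The part of these markers in the kidney course was not tested.

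Among the 4 organs with reads at all stages (testes, kidney, adrenal and antler) the adrenal had the widest range, 64.4-fold between juvenile and adult, and all 6 of its pairs were called. The names called made up 10.5%, 27.5% and 29.2% in the 3 pairs with juvenile, 31.8% and 28.1% from adolescence to adult and aged, and 8.59% between adult and aged. Here the aged library was 8.31-fold above the adult one, although the adult value rested on 2 reads. MiR-7, the leading miRNA of the adrenal libraries among the markers chosen, held 474297, 590536, 93085 and 98970 RPM. Antler spanned 3.37-fold between its highest and lowest library.

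**Figure D4:**
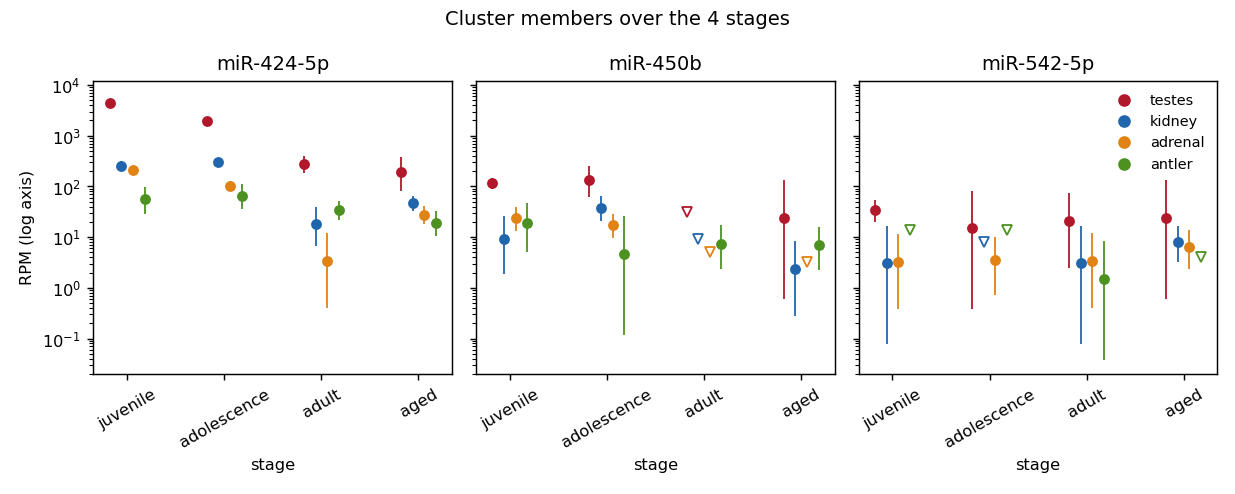
Levels of miR-424-5p, miR-450b and miR-542-5p (RPM, log axis) over the 4 stages in testes, kidney, adrenal and antler, 1 pooled library per point with exact 95% counting intervals. Open triangles mark the limit of 3 reads at 0 reads. In testes miR-424-5p goes from 4352 to 191 RPM, miR-450b has a triangle in adult, and the intervals of miR-542-5p overlap over the 4 stages.

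Over all organs stage was not called for miR-424-5p (limma F = 5.27, adjusted p = 0.0302), whereas 6 of 124 miRNAs (4.84%) were. On the recovered reads edgeR (adjusted p = 0.00898) and DESeq2 (adjusted p = 0.00662) both called it, beside 10 and 33 of 124 miRNAs called in all. No other alternative called stage for miR-424-5p. The limma adjusted p was 0.0797 with total reads, 0.136 with no read minimum and 0.454 without the juvenile stage. The single contrast of adult against juvenile was called, with a log2 difference of -2.30 ± 0.59 (SE, limma adjusted p = 0.00671) among 8 of 124 miRNAs (6.45%). It missed the limit under 6 of 8 alternatives, with the direction kept. The adolescence and aged differences from juvenile were -1.12 ± 0.59 (limma adjusted p = 0.342, 0.806% called) and -1.55 ± 0.59 (limma adjusted p = 0.0587, 5.65% called). For miR-450b the adult difference was -1.44 ± 0.50 (limma adjusted p = 0.0445).

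MiR-450b followed miR-424-5p over the libraries. Pearson's r of the scaled log2 levels was 0.840 over 40 libraries and 0.838 over the 36 outside testes, a description that shares depth and the many libraries at 0. Over 40 libraries the 5 non-cluster names nearest to miR-424-5p were miR-532 (0.571), miR-374a (0.540), miR-152 and its second name miR-2957 (0.540) and miR-106a (0.537). Over the 36 libraries outside testes they were miR-532 (0.679), miR-140 (0.676), miR-2957 and miR-152 (0.603) and miR-431 (0.581). The median r of the other tested miRNAs was -0.06 and 0.01.

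The ratio of the members differed between organs in reads pooled over stages. MiR-450b made up 2.80% of the summed reads of miR-424-5p and miR-450b in testes (72 of 2572, 95% Clopper-Pearson interval 2.20% to 3.51%). The share was 7.36% in kidney (4.49% to 11.3%), 10.7% in adrenal (7.32% to 14.9%) and 19.2% in antler (11.2% to 29.7%). The pooled testes interval lay below those of the other 3 organs, and those of kidney and adrenal overlapped. Of the 2572 pooled testes reads 2393 came from the juvenile library. Within stages testes and kidney overlapped, whereas juvenile adrenal (10%, 5.71% to 15.96%) and juvenile antler (25%, 7.27% to 52.4%) lay above juvenile testes. Adolescence adrenal (14.6%, 8.39% to 22.9%) and adolescence antler (6.67%, 0.169% to 31.9%) overlapped adolescence testes. The share was 2.59% in juvenile testes (1.99% to 3.31%) against 3.49% in juvenile kidney (0.725% to 9.86%). In adolescence it was 6.29% in testes (2.92% to 11.6%) against 11.3% in kidney (6.31% to 18.2%). For miR-542-5p the juvenile shares beside miR-424-5p overlapped, at 0.766% in testes (0.455% to 1.21%), 1.19% in kidney (0.0301% to 6.46%) and 1.46% in adrenal (0.177% to 5.17%). Higher shares were seen in aged kidney (14.9%, 6.20% to 28.3%) and aged adrenal (18.8%, 7.21% to 36.4%), and adult testes held 6.90% (0.846% to 22.8%). Aged testes held 1 read of miR-542-5p beside 8 of miR-424-5p.

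**Figure D5:**
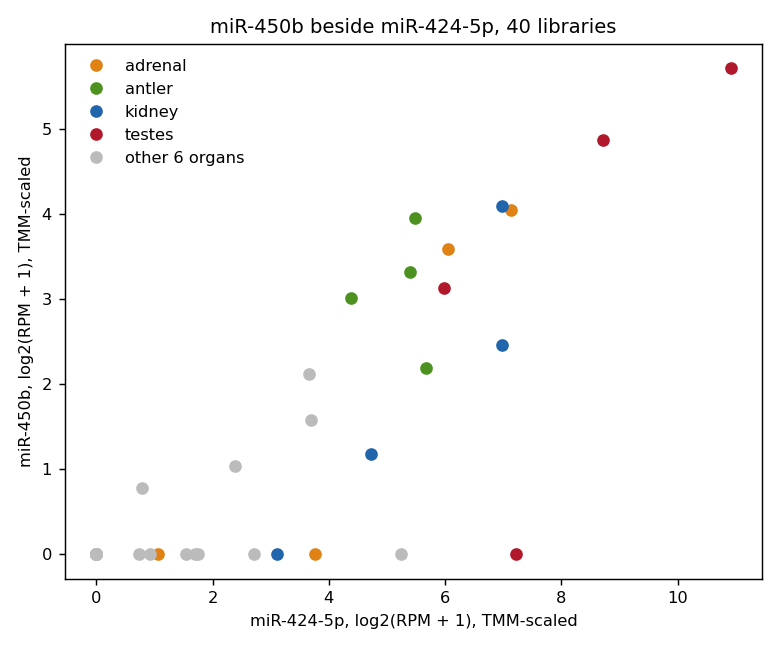
Scaled level of miR-450b against that of miR-424-5p, both as log2(RPM + 1), in 40 libraries coloured by organ. Libraries with both miRNAs rise together to juvenile testes at the upper right, and 1 testes library (adult) lies at 0 for miR-450b beside 3 kidney or adrenal libraries.

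Relatives of miR-424-5p in sequence or in place on the X chromosome were sparse. Of 6 names of the miR-15 and miR-16 seed family 2 were listed and 1 was tested, miR-15a (182 reads), which did not differ in testes (-1.01 ± 0.57, limma adjusted p = 0.173). Of 6 names of the miR-106a cluster, which lies near on the X chromosome and is known from proliferating cells, 3 were listed and 1 was tested. That one, miR-106a, was called higher in testes (2.63 ± 0.49, limma adjusted p = 6.88e-05) on 10, 9, 3 and 5 reads from juvenile to aged. Its level was lowest in juvenile (18.7 RPM), where miR-424-5p was highest, and stood at 134, 30.9 and 119 RPM in the later libraries.

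Of 19 other X-linked names 13 were listed and 5 were tested. In testes 0 of these 5 were called in either direction, against 22 of all 124 (6 higher and 16 lower). The lower calls in testes depend on the method, being 7 with edgeR and 7 with DESeq2 on the recovered reads. The median difference of the 5 was 0.10 against -0.46 over all 124. In kidney 1 of 5 was called higher (9.68% of all 124), miR-452 (1.75, limma adjusted p = 0.00884), with a median of 1.14 against 0.01. The most abundant was miR-374b, with 6554 reads and a testes difference of 0.66 (limma adjusted p = 0.164). MiR-374a, which was near miR-424-5p over the libraries, held 859, 2038, 144 and 119 RPM in testes and was not called there (limma adjusted p = 0.583).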

How the data were processed

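Per the labels and the study's methods, small RNA was sequenced as single-end reads from pools of 3 deer, filtered against repeats and other non-coding RNA, matched to miRBase and screened for predicted miRNAs with miRDeep. The deposited values are RPM (reads per 1000000 miRNA reads, named tpm in the file headers and not divided by length). Whole reads were recovered for 7982 of 7982 values, within 0.01 of a read. The antler name miR-148c was merged with miR-2957. Antler-only names (31) were left out of the models, which kept 305 known names. Numbers are given for members in the order juvenile, adolescence, adult and aged.

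Organs and stages were compared with limma 3.58.1 on log2(RPM + 1) with a pseudocount of 1 after TMM scaling (edgeR 4.0.16, R 4.3.3), with Benjamini-Hochberg adjustment. On the recovered reads edgeR's quasi-likelihood test and DESeq2 1.42.0 were run as alternatives. In testes against the other 9 organs edgeR called 10 miRNAs higher and 7 lower. The log2(RPM + 1) scale understates changes of scarce miRNAs. Other alternatives were the pseudocount, the scaling, the read minimum, second names, thinned libraries, leaving out miR-1, and leaving out libraries. DEGseq's random sampling model and exact permutations (scipy 1.17.1) were run as described. The scripts were tested on simulated data. Stage served as the replicate block, since the 10 libraries of a stage came from the same deer. Over 180 pairs of same-stage libraries the deviations from organ means correlated with a mean r of 0.141 (94 pairs above 0.1), against -0.05 over 540 pairs of different stages. The members and lists were chosen with earlier results of these data known. The text gives all members, the 5 names nearest to miR-424-5p, and list members by most reads. Other miRNAs called higher beside a member were named after their values were seen.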

Additional observations from a re-analysis of the deposited data

Results flagged for a closer look

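Each miRNA was screened within each organ, which gave 24 groups of 4 libraries with a read, and in 3 of them a library with 3 or more reads stood far from the other 3. For values with a measured spread chance alone gives this in about 1 in 20 groups. Juvenile muscle held 2.06 RPM of miR-424-5p on 16 reads, against 0.18 RPM or less in the later muscle libraries. Aged spleen held 16.8 RPM of miR-424-5p on 7 reads, and aged adrenal held 6.41 RPM of miR-542-5p on 6 reads.

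In 7 further groups 1 library had 1 or 2 reads and the other 3 had 0. A lone read always gives such a gap, so the chance rate does not apply to them and no excess is read from their number. They were miR-424-5p in juvenile liver (4.57 RPM, 2 reads) and juvenile heart (0.39 RPM), and miR-503-5p in aged lung (0.96 RPM). For miR-542-5p they were adult antler (1.48 RPM), adult heart (0.66 RPM), juvenile lung (0.96 RPM) and adolescence spleen (1.12 RPM).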

How the results depend on the processing

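MiR-424-5p was called higher in testes under all 16 alternatives (log2 difference 4.02 to 7.25), and it was 5.18 to 6.89 when 1 stage or 1 testes library was left out. The fit as reported called 6 miRNAs higher and 16 lower in testes, and 12 higher and 8 lower in kidney. The number called higher in testes was 41 with total reads in place of TMM (10 lower), 10 with edgeR (7 lower), 14 with DESeq2 (7 lower), 13 with no read minimum, 10 with second names counted once, 10 without miR-1, and 4 to 11 when a stage or library was left out. Total reads moved the median difference by 1.37 in testes and 1.06 in kidney, and miR-424-5p stood 6.34 and 2.64 above it.

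In kidney miR-424-5p missed the limit with log2(RPM + 10) (1.32, limma adjusted p = 0.0210) and with no replicate block (2.75, limma adjusted p = 0.0104), and ran from 2.22 to 3.31 when libraries were left out. MiRNAs called higher in kidney were 42 with total reads (2 lower) and 20 with DESeq2 (8 lower), and the organs below kidney numbered 3 to 6 without 1 stage. For stage, edgeR and DESeq2 called miR-424-5p (7.27 and 15.1, adjusted p = 0.00898 and 0.00662), and the miRNAs called were 10 with edgeR, 33 with DESeq2, 12 with second names counted once, 0 with no read minimum or no organ term, and 0 to 6 without 1 stage. For juvenile testes the miRNAs called were 0 with edgeR or with the replicate block (stage added), 2 with log2(RPM + 10), 11 with no read minimum and 0 to 1 without 1 library.

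By permutation the testes differences ran from 6.73 to 7.94 (miR-424-5p) and 3.78 to 4.09 (miR-542-5p) without 1 stage, with adjusted p from 0.0436 to 0.0763, as 3 stages allow fewer choices. With TMM-scaled RPM the testes differences were 5.82 (miR-424-5p) and 2.77 (miR-542-5p), and with log2(RPM + 10) they were 5.35 and 1.59. Their exact permutation adjusted p stayed at 0.00763 under both scales. With every library thinned to the smallest depth the testes differences were 7.74 (miR-424-5p) and 3.72 (miR-542-5p). Their exact permutation adjusted p then rose to 0.0209 and 0.0487, the latter just below the limit of 0.05. MiR-450b passed with log2(RPM + 10) (1.997, exact permutation, adjusted p = 0.0381). MiR-542-5p in kidney turned to -0.40 when libraries were thinned to the smallest depth, at which 13 libraries in place of 27 held an expected read of miR-424-5p. The pair of testes and kidney was called with total reads (3.18) and with log2(RPM + 10) (2.43). That of testes and antler was called with total reads (4.35), log2(RPM + 10) (2.73), second names counted once (3.36) and without the aged stage (3.53). The organs below testes numbered 6 to 9. The causes of these changes were not tested.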
